A study of Mus musculus with 24 samples.

Results

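The 10 genes described here, of the leukotriene and prostanoid pathways, were read from the 24 tables by symbol: Alox5, Alox5ap, Ltc4s and Lta4h of leukotriene synthesis, Ptgs1, Ptges, Hpgds and Tbxas1 of prostanoid synthesis, the platelet-activating factor hydrolase Pla2g7 and the lipid receptor Gpr132. They are 10 of the 17017 genes listed, each symbol occurred once, and all 10 passed the filter on low values (1 TPM or more in at least 3 libraries), as did 13215 genes in all. The cells were primary alveolar macrophages, the resident phagocytes of the air spaces, from wild-type mice of the BALB/cJ strain, and RNA was taken at 20 h of stimulation. The 8 groups of 3 libraries were untreated cells and cells to which the recombinant cytokine IL-33, IL-13 or IL-17A was added, each alone, in each of the pairs (IL-13+IL-17A, IL-33+IL-17A, IL-33+IL-13) and together (the triple combination). Age, dose and the number of mice were not in the labels used here, and p-values measure the spread between libraries, which may be technical. The title of the series concerns lung fibroblasts that answer to the same cytokines and release factors that act on macrophages, while these libraries are of macrophages given the cytokines directly.

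Eicosanoids are signalling lipids made from arachidonic acid. Arachidonate 5-lipoxygenase (Alox5) works with its activating protein (Alox5ap) to make leukotriene A4, which Lta4h turns into the neutrophil attractant leukotriene B4 and Ltc4s into leukotriene C4, the parent of the cysteinyl leukotrienes that constrict airways. Cyclooxygenase-1 (Ptgs1) makes prostaglandin H2, from which Ptges makes prostaglandin E2, Hpgds prostaglandin D2 and Tbxas1 thromboxane A2. Macrophages are a known source of both kinds of product, and IL-13 is a cytokine of allergic airway inflammation that drives alternative activation of macrophages.

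The recovered reads of a library numbered between 9.13 M and 12.9 M (median 10.6 M). The members had from 24 reads (Ptgs1, in a library with IL-33+IL-17A) to 2933 (Pla2g7, in a library with IL-17A) per library, and a log2 difference of a tested gene had a median SE of 0.102. Libraries with and without IL-13 lay on opposite sides of the first principal component (26.4% of the variance). Triple replicate 2 lay farthest along the second (8.89%), with replicate 1 of the untreated group and replicate 2 of the IL-17A group on the same side. Of 12 markers of alveolar macrophages 11 were at a mean of 1 TPM or more over all libraries, and 10 over those without IL-13. Car4 had group means of 0.0814 to 0.165 TPM without and 1.82 to 2.27 TPM with IL-13. Siglecf had group means of 508 to 539 TPM without and 287 to 303 TPM with IL-13. Those of Itgax were 1665 to 1779 and 2275 to 2398 TPM, so these markers also moved with the treatment. Marco lay between 0.202 and 0.624 TPM. Summed markers of monocytes and interstitial macrophages (7 of 8 listed in the tables) ran from 54.8 to 71.3 TPM without and from 56.8 to 74.2 TPM with IL-13, and those of fibroblasts (3 of 6 listed) from 4.34 to 6.32 and from 2.22 to 4.003 TPM. Levels are in TPM, transcript abundance per length scaled to 1 total in each library, which the authors set on the whole gene span, introns included, so they compare libraries for 1 gene. Differences are on the log2(TPM + 1) scale from limma, on which changes at levels close to the added 1 TPM come out too small. A gene is called where the adjusted p is under 0.05.

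With IL-13, averaged over the 4 backgrounds in which it was added, 4 members rose (Ptgs1, Tbxas1, Ltc4s and Ptges) and 6 fell (Gpr132, Hpgds, Alox5, Pla2g7, Alox5ap and Lta4h). All 10 were thus called, where 50.9% of all tested genes were, 20% higher and 30.9% lower. Their median absolute difference was 0.90 on the log2 scale against 0.16 over all tested genes. The members were chosen with earlier results of these data known, so the comparison with all genes is a description only. Of the members, 5 changed by at least 1 on that scale: Ptgs1, Tbxas1 and Ltc4s upward and Hpgds and Gpr132 downward. Of all tested genes 1.96% changed as much. Under the alternatives run Hpgds ranged from -1.08 to -0.83 and Tbxas1 from 0.72 to 1.45, so whether Hpgds and Tbxas1 reach 1 depends on the settings. Ptgs1 (1.94 to 3.75), Ltc4s (1.07 to 1.18) and Gpr132 (-2.04 to -1.03) stayed beyond 1. In bulk RNA, fewer cells of a type and less RNA per cell cannot be told apart.

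The 250 bases before the RefSeq start of these 5 genes (GRCm38.p6) are shown because the genes moved most with IL-13 and in both directions. Capitals mark matches to the motifs described after the sequences. RefSeq windows matched 9 of the 10 members, and Alox5ap had none. The windows of Tbxas1 and Gpr132 lie wholly inside the gene spans given below, away from the annotated gene start. Those of Ltc4s and Hpgds overlap the span in part, and that of Ptgs1 adjoins it. The letters are those of the C57BL/6J reference and not of the BALB/cJ cells.
Ptgs1, chr2:36230176-36230425, plus strand: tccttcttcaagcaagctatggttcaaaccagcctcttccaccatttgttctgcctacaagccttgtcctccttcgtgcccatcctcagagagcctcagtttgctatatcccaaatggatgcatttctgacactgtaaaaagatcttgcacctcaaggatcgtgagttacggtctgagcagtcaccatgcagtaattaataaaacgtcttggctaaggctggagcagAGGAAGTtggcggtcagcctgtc
Tbxas1, chr6:38918736-38918985, plus strand: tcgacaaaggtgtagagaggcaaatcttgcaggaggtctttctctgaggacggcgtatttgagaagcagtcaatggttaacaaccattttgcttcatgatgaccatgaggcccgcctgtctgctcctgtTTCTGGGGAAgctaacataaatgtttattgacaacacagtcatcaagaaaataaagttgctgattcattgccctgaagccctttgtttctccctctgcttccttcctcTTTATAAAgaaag
Ltc4s, chr11:50238533-50238782, minus strand: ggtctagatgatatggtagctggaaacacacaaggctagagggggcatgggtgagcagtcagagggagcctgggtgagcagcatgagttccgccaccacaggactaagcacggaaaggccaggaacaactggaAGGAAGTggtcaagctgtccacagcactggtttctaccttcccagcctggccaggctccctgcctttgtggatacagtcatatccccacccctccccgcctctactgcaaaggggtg
Hpgds, chr6:65144731-65144980, minus strand: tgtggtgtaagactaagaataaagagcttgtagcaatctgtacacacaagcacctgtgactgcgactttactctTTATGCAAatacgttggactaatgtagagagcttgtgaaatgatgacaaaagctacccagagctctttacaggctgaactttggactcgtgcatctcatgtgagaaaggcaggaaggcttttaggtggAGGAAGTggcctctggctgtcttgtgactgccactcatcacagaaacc
Gpr132, chr12:112860917-112861166, minus strand: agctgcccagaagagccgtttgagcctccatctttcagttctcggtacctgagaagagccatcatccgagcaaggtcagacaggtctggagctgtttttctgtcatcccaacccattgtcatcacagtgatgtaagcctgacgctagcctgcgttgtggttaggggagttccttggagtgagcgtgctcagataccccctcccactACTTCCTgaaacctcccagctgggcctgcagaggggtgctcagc

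In all, 5 motifs were searched on both strands of these windows: the STAT-type palindrome TTCNNNGAA, the STAT6-type palindrome, which has 1 more free base in its middle, the core AGGAAGT bound by ETS factors such as PU.1, the C/EBP-type TTGCNNAA and the TATA box TATAAA. The ETS core stood in 4 of the 9 windows, at 23 to 17 bases before the start in Ptgs1, 48 to 42 in Hpgds, 117 to 111 in Ltc4s and, on the other strand, 44 to 38 in Gpr132. It was in 7.69% of the 32851 windows of that length in the table. Among these 4 genes are 2 that rose and 2 that fell with IL-13. The STAT6-type palindrome, in 5.85% of all windows, matched in Tbxas1 (121 to 112 bases before the start) and in Ptges (197 to 188), and the STAT-type palindrome, in 7.02%, in Pla2g7 (145 to 137). Tbxas1 also held TATAAA on both strands, the matches overlapping, 13 to 6 bases before its start (12.4% of all windows), and Hpgds a match to TTGCNNAA (9.56% of all windows). A match is a description of letters in the reference, and 6 of the 9 windows held neither palindrome.

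The difference with IL-13 was then followed in each background, from 4 comparisons that share no library. Against untreated cells all 10 members were called, 4 higher and 6 lower (29.8% of all tested genes called, 14.1% higher and 15.7% lower). In the presence of IL-17A 9 were called, all but Alox5ap (29.8% of all genes, 12.2% higher and 17.6% lower). In the presence of IL-33 9 were called, all but Ptges (23.9% of all genes, 11.2% higher and 12.8% lower), and in the presence of IL-33 and IL-17A all 10 (32.7% of all genes, 11% higher and 21.7% lower). No member changed direction between backgrounds. With IL-33 present the 3 libraries of Lta4h overlapped those of its control. How often groups lay wholly apart was not counted over all tested genes, so no such count is given for the members.

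**Figure D1:**
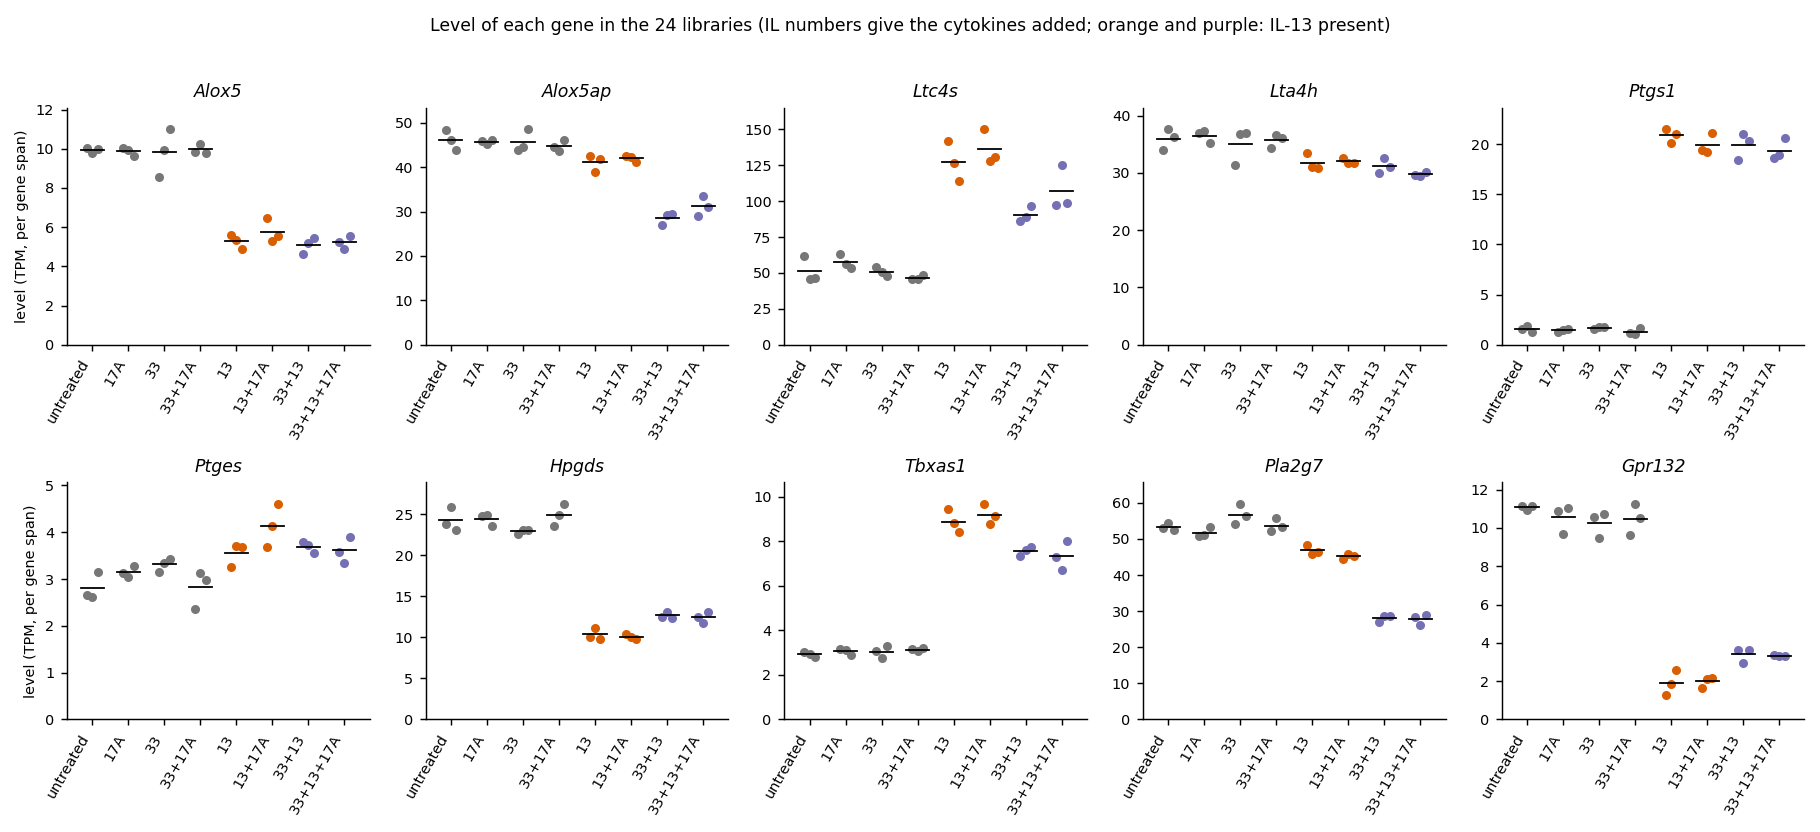
Level of each of the 10 genes in TPM (vertical axis, from 0, a separate scale per gene) in the 24 libraries by treatment group; points are libraries, lines are means of 3, grey marks libraries without IL-13, orange those with IL-13 and no IL-33, purple those with IL-13 and IL-33. Ptgs1 lies between 1.08 and 1.87 TPM without IL-13 and between 18.4 and 21.5 TPM with it, and Gpr132 does the reverse.

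Ptgs1, which encodes cyclooxygenase-1 and is often described as constitutive, showed the largest difference. Its gene (ENSMUSG00000047250) lies on mm10 chromosome 2, bases 36230426 to 36252272, plus strand, with 11 merged exons. Untreated libraries were at 1.59, 1.87 and 1.29 TPM and those with IL-13 at 21.5, 20.2 and 20.97 TPM. Both groups were tight and far apart, the means standing in a ratio of 13.2. The log2 difference was 3.09 (SE 0.0919, limma adjusted p = 7.97e-15). With IL-17A present the libraries went from 1.30, 1.51 and 1.62 to 19.4, 19.2 and 21.2 TPM, and with IL-33 present from 1.56, 1.73 and 1.74 to 18.4, 21.03 and 20.3 TPM. With IL-33 and IL-17A they went from 1.14, 1.08 and 1.66 to 18.6, 18.9 and 20.6 TPM. The 12 libraries without IL-13 thus held one narrow band and the 12 with it another, and the log2 difference ran from 2.96 to 3.16 across the backgrounds. The antisense gene Gm43621 shares 148 exon bases with Ptgs1 and had 0.559% as many reads.

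Of the synthases downstream of Ptgs1, Tbxas1 (thromboxane A synthase, ENSMUSG00000029925, chromosome 6, bases 38875404 to 39084585, plus strand, 18 merged exons) rose in every background. Untreated libraries were at 3.03, 2.94 and 2.81 TPM, and those with IL-13 at 9.43, 8.80 and 8.41 TPM. This is a ratio of means of 3.03 and a log2 difference of 1.33 (SE 0.0653, limma adjusted p = 9.58e-12). With IL-17A also present the difference was 1.33, with IL-33 1.09 and with both 1.01. Over all 12 libraries without IL-13 the level ran from 2.75 to 3.31 TPM, and with IL-13 from 6.71 to 9.67 TPM, with no overlap. Hipk2 on the other strand overlaps the gene span but none of its exons, and its mean was 18.4 TPM without and 18.96 TPM with IL-13. The antisense gene Gm42962 shares 144 exon bases with Tbxas1 and is not among the genes listed, so its reads are unknown.

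Platelets also express Ptgs1 and Tbxas1, and the markers of that lineage are given beside them. The summed level of the 4 platelet and megakaryocyte markers in the tables, of 7 listed, ran from 3.37 to 9.28 TPM without IL-13 and from 9.71 to 42.6 TPM with it. The leading gene was Pf4, with means of 4.75 TPM without and 23.4 TPM with IL-13. Of the lineage-defining receptors, Itga2b had group means of 0.186 to 0.361 TPM and Gp5 of 0 to 0.546 TPM. Treml1, another platelet receptor, had means of 0.943 to 1.73 TPM. The part of these markers in the Ptgs1 and Tbxas1 differences was not tested.

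Hpgds (hematopoietic prostaglandin D synthase, ENSMUSG00000029919, chromosome 6, bases 65117293 to 65144908, minus strand, 6 merged exons) went the other way. Untreated libraries were at 23.8, 25.8 and 23.04 TPM and those with IL-13 at 10.1, 11.1 and 9.84 TPM. The mean with IL-13 was 0.427 of the untreated mean, a log2 difference of -1.15 (SE 0.0544, limma adjusted p = 5.53e-12). With IL-17A also present the difference was -1.20. It was -0.81 with IL-33 and -0.95 with both, so the decrease held in each background and was smallest where IL-33 was present.

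Ptges, the inducible microsomal prostaglandin E synthase (ENSMUSG00000050737, chromosome 2, bases 30889471 to 30929863, minus strand, 6 merged exons), moved least among the genes that rose. Its 12 libraries without IL-13 ran from 2.36 to 3.43 TPM with a median of 3.14, and the 12 with IL-13 from 3.26 to 4.60 TPM with a median of 3.69, so the ranges overlapped. The averaged log2 difference was 0.24 (SE 0.0429, limma adjusted p = 0.000104). Against untreated cells it was 0.26 (adjusted p = 0.0291), a call that was lost on leaving out any of untreated replicates 1 or 2 or IL-13 replicates 2 or 3 (limma adjusted p up to 0.108). With IL-33 present the difference of 0.12 did not pass (limma adjusted p = 0.369). The Ptges call with IL-17A present was lost without IL-13+IL-17A replicate 3, and the call with both others present was lost without IL-33+IL-17A replicate 1 or triple replicate 3.

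Among the leukotriene genes, Ltc4s rose while the lipoxygenase, its activating protein and the hydrolase fell. Ltc4s (leukotriene C4 synthase, ENSMUSG00000020377, chromosome 11, bases 50236461 to 50238616, minus strand, 4 merged exons) was at 61.9, 46.0 and 46.8 TPM in untreated libraries and at 142, 126 and 114 TPM with IL-13. The groups did not overlap, with a ratio of means of 2.47 and a log2 difference of 1.30 (SE 0.113, limma adjusted p = 3.29e-08). With IL-17A present its libraries went from 63.2, 56.3 and 53.2 to 150.0, 128 and 131 TPM. With IL-33 present they went from 54.0, 50.4 and 48.1 to 86.1, 89.0 and 96.6 TPM, the smallest of the 4 differences (0.82), and with both from 45.7, 45.5 and 48.3 to 97.0, 125 and 99.0 TPM. Untreated replicate 1 and triple replicate 2, which stood apart on the second component, were the highest of their groups. Without those and IL-17A replicate 2 the difference against untreated cells was 1.43. The gene is short, with 92 to 344 reads per library, and the antisense gene Gm26542 shares 268 exon bases with it and had 2.70% as many reads.

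Alox5 (ENSMUSG00000025701, chromosome 6, bases 116410077 to 116461178, minus strand, 12 merged exons) was at 10.01, 9.78 and 9.96 TPM in untreated libraries and at 5.59, 5.36 and 4.90 TPM with IL-13. The level with IL-13 was 0.533 of the untreated mean, a log2 difference of -0.80 (SE 0.0789, limma adjusted p = 1.89e-07). Over all libraries it ran from 8.55 to 10.99 TPM without IL-13 and from 4.61 to 6.48 TPM with it, with no overlap, and the 4 differences lay between -0.83 and -0.69. Neutrophils are another known source of Alox5. The summed level of the 4 neutrophil markers in the tables, of 10 listed, ran from 137 to 178 TPM without and from 67.3 to 128 TPM with IL-13, mostly S100a8 (means of 137 and 91.4 TPM). The receptors of that list were lower with IL-13 in each background: against untreated cells the mean of Cxcr2 went from 9.20 to 1.49 TPM and that of Csf3r from 6.38 to 1.52 TPM, while Camp had group means of 0 to 0.610 TPM. The part of these markers in the Alox5 difference was not tested. The 11 listed markers of mast cells and basophils and the 5 of eosinophils were not analysed here.

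Alox5ap and Lta4h fell by less. Alox5ap (ENSMUSG00000060063, chromosome 5, bases 149264767 to 149288153, plus strand, 8 merged exons) was at 48.5, 46.0 and 43.8 TPM in untreated libraries and at 42.4, 39.0 and 41.8 TPM with IL-13, groups that lay close but did not overlap (log2 difference -0.16, limma adjusted p = 0.0254). This call was lost without untreated replicate 1 or 2 or IL-13 replicate 2 (limma adjusted p up to 0.127). With IL-33 present the difference was larger, from 43.9, 44.6 and 48.5 to 27.1, 29.3 and 29.5 TPM (log2 difference -0.66, limma adjusted p = 1.54e-08). The antisense gene Gm19719 shares 189 exon bases with Alox5ap and had 0.10% as many reads. Lta4h (leukotriene A4 hydrolase, ENSMUSG00000015889, chromosome 10, bases 93453411 to 93484875, plus strand, 19 merged exons) ran from 31.4 to 37.6 TPM without IL-13, median 36.4, and from 29.5 to 33.5 TPM with it, median 30.99. These ranges overlapped, and the averaged log2 difference was -0.19 (SE 0.0275, limma adjusted p = 8.03e-06). Against untreated cells the difference in Lta4h was -0.17 (limma adjusted p = 0.0249), lost without untreated replicate 2 or 3 or IL-13 replicate 2 or 3 (adjusted p up to 0.117). With IL-17A present the Lta4h call was lost without IL-17A replicate 1 or 2, and with IL-33 present without IL-33 replicate 2 or 3 or IL-33+IL-13 replicate 1 or 3.

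Pla2g7 and Gpr132 act outside the synthesis steps. Pla2g7 (ENSMUSG00000023913, chromosome 17, bases 43568098 to 43612201, plus strand, 15 merged exons) encodes the secreted hydrolase of platelet-activating factor and oxidised phospholipids. It was at 53.0, 54.4 and 52.4 TPM in untreated libraries and at 48.2, 45.8 and 46.4 TPM with IL-13, a log2 difference of -0.18 (SE 0.0434, limma adjusted p = 0.00312). With IL-33 present it went from 54.0, 59.7 and 56.3 to 26.9, 28.7 and 28.7 TPM, a log2 difference of -0.99 (limma adjusted p = 2.96e-12). Its decrease with IL-13 was thus small without IL-33 and to 0.496 of the control mean with it. The antisense gene 1700071M16Rik shares 319 exon bases with Pla2g7 and had 0.336% as many reads.

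Gpr132 is a receptor of oxidised fatty acids on macrophages (ENSMUSG00000021298, chromosome 12, bases 112850873 to 112868228, minus strand, 5 merged exons). Untreated libraries were at 11.1, 10.9 and 11.2 TPM and those with IL-13 at 1.28, 1.86 and 2.58 TPM. The mean with IL-13 was 0.172 of the untreated mean, the largest decrease among the members (log2 difference -2.08, SE 0.119, limma adjusted p = 8.85e-11). The libraries with IL-13 alone rest on 25 to 44 reads each. With IL-33 present the libraries went from 10.6, 9.46 and 10.7 to 3.65, 2.95 and 3.61 TPM, a log2 difference of -1.36.

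**Figure D2:**
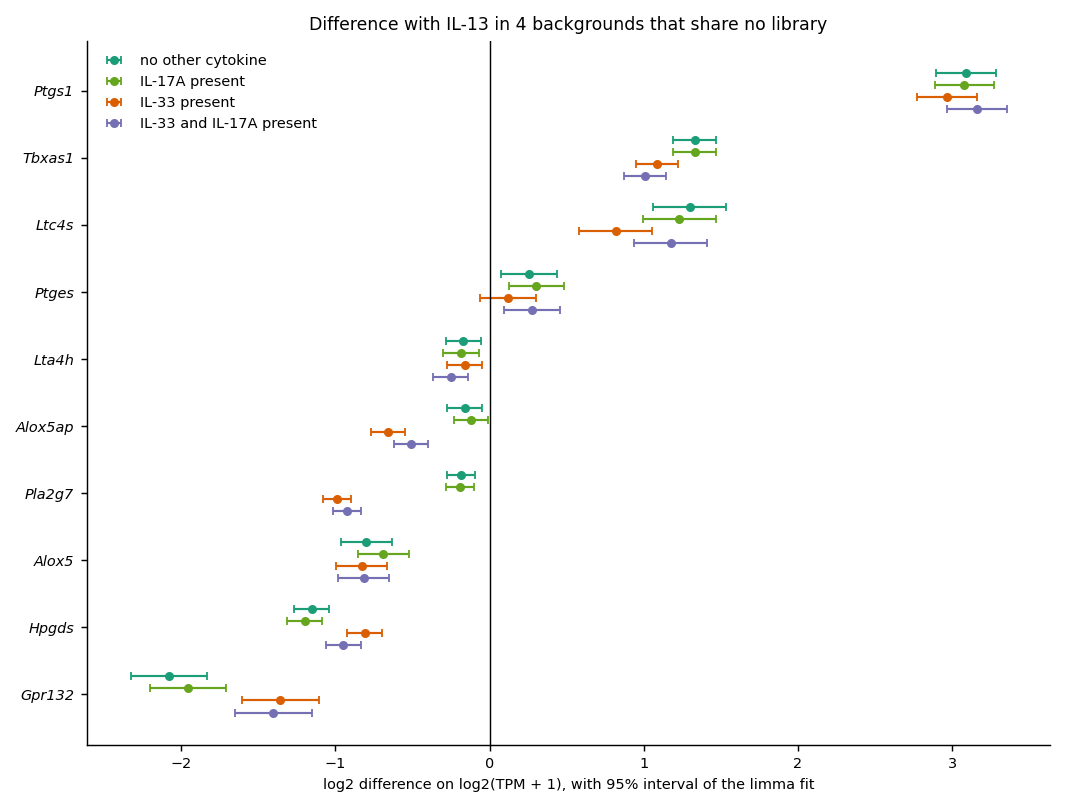
Log2 difference with IL-13 (horizontal axis, log2(TPM + 1) scale) for each gene in 4 backgrounds that share no library; points are limma estimates and bars 95% intervals. Ptgs1 lies near 3 in every background, while Pla2g7 and Alox5ap lie far lower in the backgrounds with IL-33 than in those without.

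IL-33, an alarmin cytokine released by damaged epithelium, was added to cells without IL-13 in 2 of the comparisons. Against untreated cells no member was called by limma (0% of all tested genes called; 1 member and 484 genes at an unadjusted p under 0.05). The member was Ptges, at 3.16, 3.35 and 3.43 TPM with IL-33. With IL-17A present no member was called either (0.00757% of all genes called, 1 gene; 1 member, Ltc4s, and 626 genes at an unadjusted p under 0.05). Limma-voom on recovered reads called 0 members in both. The intervals give what could be missed: for Gpr132 the log2 difference with IL-33 alone lay between -0.35 and 0.15, for Ltc4s between -0.24 and 0.23 and for Pla2g7 between -0.004 and 0.18. For the members with an unadjusted p under 0.05 the unadjusted intervals left out 0. That of Ptges with IL-33 alone was 0.002 to 0.36. That of Ltc4s with IL-17A present was -0.53 to -0.06.

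Added beside IL-13, IL-33 moved 5 members, Hpgds and Gpr132 upward and Pla2g7, Alox5ap and Ltc4s downward, where 2.57% of all tested genes were called, 0.832% higher and 1.74% lower. Pla2g7 went from 48.2, 45.8 and 46.4 TPM with IL-13 to 26.9, 28.7 and 28.7 TPM with IL-33+IL-13, a log2 difference of -0.72 (SE 0.0434, limma adjusted p = 2.90e-08). Alox5ap fell by 0.51 (SE 0.0527, limma adjusted p = 7.27e-06), its libraries going from 42.4, 39.0 and 41.8 to 27.1, 29.3 and 29.5 TPM. Neither pair of groups overlapped. Gpr132 went from 1.28, 1.86 and 2.58 to 3.65, 2.95 and 3.61 TPM (log2 difference 0.62, limma adjusted p = 0.00542), still below the lowest library without IL-13, at 9.46 TPM. Hpgds rose by 0.27 (limma adjusted p = 0.00839), a call lost without IL-13 replicate 1 or 3 (adjusted p up to 0.0608). Ltc4s fell by 0.49 (limma adjusted p = 0.0218), lost without IL-13 replicate 1 or 2 or IL-33+IL-13 replicate 1 or 2 (adjusted p up to 0.143). Without IL-13 replicate 1 alone 3 members were called.

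The same addition in cells that also had IL-17A shares no library with this and called 5 members, 2 higher and 3 lower (3.55% of all tested genes called, 1.15% higher and 2.4% lower). Pla2g7 went from 44.5, 45.9 and 45.2 to 28.4, 26.1 and 29.0 TPM (-0.68, limma adjusted p = 7.10e-08) and Alox5ap from 42.5, 42.3 and 41.3 to 29.1, 33.5 and 30.996 TPM (-0.42, limma adjusted p = 6.65e-05). Hpgds rose by 0.28 (limma adjusted p = 0.00547), from 10.4, 10.1 and 9.74 to 12.5, 11.7 and 13.03 TPM, and Gpr132 by 0.54 (limma adjusted p = 0.0119), from 1.64, 2.13 and 2.18 to 3.38, 3.31 and 3.31 TPM. Tbxas1 was called here, at -0.29 (limma adjusted p = 0.0141), and Ltc4s was not (-0.35, limma adjusted p = 0.109). The Tbxas1 call was lost without IL-13+IL-17A replicate 1 or 3 or triple replicate 2 (adjusted p up to 0.0903), and the Gpr132 call without IL-13+IL-17A replicate 1 (adjusted p = 0.0855). Without IL-13+IL-17A replicate 1 alone 3 members were called. Alox5, Lta4h, Ptgs1 and Ptges were called in neither background.

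An average over both backgrounds, chosen after seeing the data, called 6 members (7.01% of all tested genes). Pla2g7 fell by 0.70, Alox5ap by 0.46, Ltc4s by 0.42 and Tbxas1 by 0.25, while Hpgds rose by 0.27 and Gpr132 by 0.58 (limma adjusted p between 1.11e-10 and 0.00198). For Ptgs1 the averaged difference was -0.05, with an interval of -0.19 to 0.08, and for Alox5 -0.08, with an interval of -0.20 to 0.04.

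**Figure D3:**
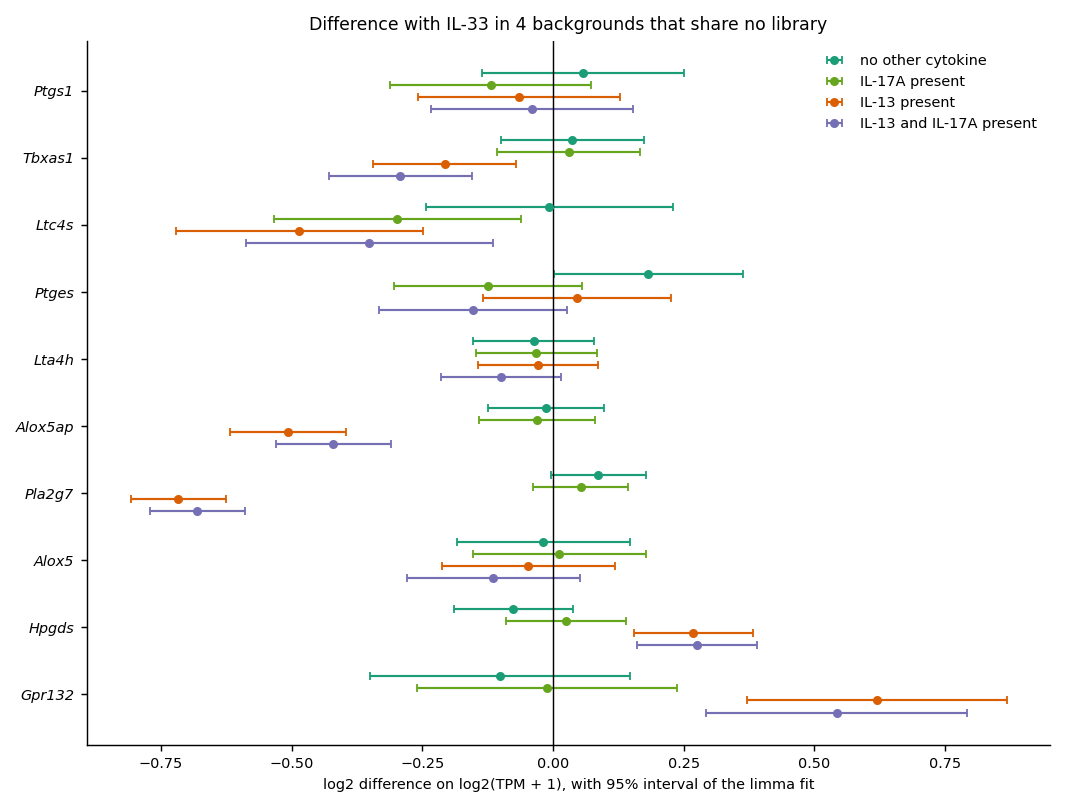
Log2 difference with IL-33 (horizontal axis, log2(TPM + 1) scale) for each gene in 4 backgrounds that share no library; points are limma estimates and bars 95% intervals. Without IL-13 all points lie between -0.30 and 0.18; beside IL-13, Pla2g7 and Alox5ap lie to the left of 0 and Hpgds and Gpr132 to the right in both backgrounds.

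Whether the difference with IL-33 depended on IL-13 was tested as an interaction. Without IL-17A 4 members were called (1.17% of all tested genes, 0.393% higher and 0.779% lower): Pla2g7 at -0.80 (SE 0.0614, limma adjusted p = 1.10e-06), Alox5ap at -0.49 (SE 0.0745, adjusted p = 0.00104), Hpgds at 0.34 (SE 0.077, adjusted p = 0.0302) and Gpr132 at 0.72 (SE 0.168, adjusted p = 0.0379). With IL-17A present 2 were called (1.51% of all tested genes, 0.628% higher and 0.885% lower), Pla2g7 at -0.73 (limma adjusted p = 6.48e-06) and Alox5ap at -0.39 (limma adjusted p = 0.00906). There Hpgds, at 0.25 (limma adjusted p = 0.146), and Gpr132, at 0.55 (limma adjusted p = 0.136), had the same sign and did not pass. The Alox5ap value with IL-17A moved with the method. Its call was lost under median-ratio scaling (limma adjusted p = 0.164) and with limma-voom on recovered reads. Limma-voom called 3 members there, 2 higher and 1, Pla2g7, lower. Both the Hpgds and the Gpr132 call without IL-17A were lost on leaving out untreated replicate 2, IL-13 replicate 1, any one IL-33 replicate or IL-33+IL-13 replicate 1 or 3, after which 2 members were called. The Hpgds call was lost also without IL-13 replicate 3 or IL-33+IL-13 replicate 2 (limma adjusted p up to 0.0957 over these). The Gpr132 call was lost also without untreated replicate 1 or 3, IL-13 replicate 2 or IL-33+IL-17A replicate 3 (limma adjusted p up to 0.104). Averaged over IL-17A, an alternative chosen after seeing the data, 5 members were called (3.57% of all tested genes), including Hpgds at 0.30 (limma adjusted p = 0.00271), Gpr132 at 0.64 (0.00309) and Tbxas1 at -0.28 (0.0168).

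IL-17A, a cytokine of neutrophilic inflammation, was added in 4 backgrounds. No member was called by limma in any of them, nor was any of the 13215 tested genes (0%). At an unadjusted p under 0.05 there were 0 members and 469 genes against untreated cells, 1 and 497 beside IL-33, 0 and 373 beside IL-13 and 1 and 826 beside IL-33 and IL-13. Limma-voom on recovered reads also called 0 members and 0 genes in each. For Ptgs1 the interval of the log2 difference beside IL-13 was -0.26 to 0.13, for Ltc4s -0.14 to 0.33 and for Gpr132 -0.19 to 0.31.

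To compare the genes with each other, recovered reads were divided by exon length and scaled to the same total in each library, which takes the reads to lie in exons. In untreated cells Pla2g7 (271 ± 5.84, SD, n = 3) and Alox5ap (255 ± 16.2) were highest, and their libraries overlapped. Lta4h followed at 62.1 ± 2.48. Alox5 (41.4 ± 0.981), Ltc4s (36.8 ± 6.95) and Hpgds (34.9 ± 2.03) formed a group of neighbours that overlapped in turn, as did Gpr132 (23.7 ± 0.507) and Tbxas1 (22.6 ± 1.13). Ptges (9.67 ± 0.944) and Ptgs1 (2.99 ± 0.544) were lowest and apart from each other. With IL-13 the 3 libraries of Ltc4s (89.7 ± 9.55) and of Tbxas1 (67.5 ± 3.75) lay above those of Lta4h (54.3 ± 2.35), and Ptgs1 (38.8 ± 1.19) above those of Alox5 (21.8 ± 1.40). Hpgds was at 14.7 ± 0.982 and Gpr132, now lowest, at 4.04 ± 1.39. With IL-33+IL-13 Alox5ap (157 ± 6.53) lay above Pla2g7 (142 ± 4.23), and the rest kept the order they had with IL-13.

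**Figure D4:**
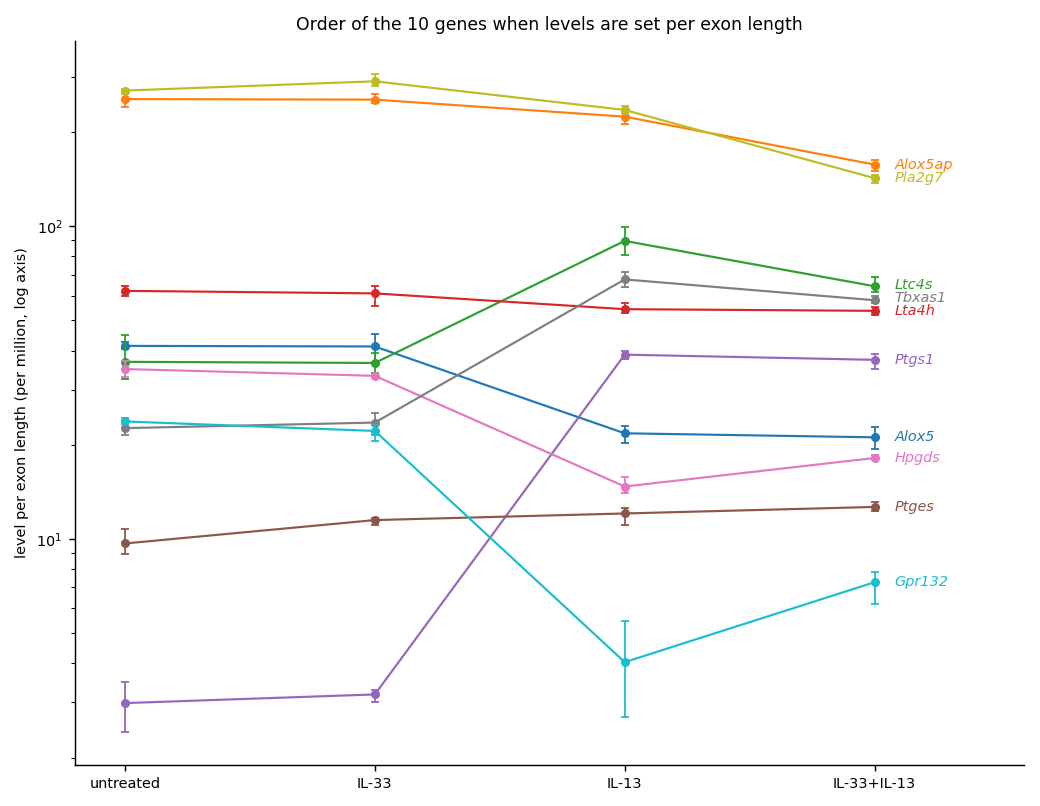
Mean level per exon length (vertical log axis, scaled to the same total in each library) of the 10 genes in untreated cells and with IL-33, IL-13 and IL-33+IL-13; bars span the lowest to the highest of 3 libraries. Ptgs1 is lowest in untreated cells at 2.99 and Gpr132 lowest with IL-13 at 4.04.

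The other genes of these pathways were taken from a list of 81 symbols, of which 67 were in the tables and 49 were tested. With IL-13, averaged over the backgrounds, 16 rose, 21 fell and 12 did not pass the test (50.9% of all tested genes called). Their median log2 difference was -0.06, and that of all tested genes -0.05. Ptgs2, the inducible cyclooxygenase, was not tested: its highest library was at 1.35 TPM and its mean over all libraries at 0.412 TPM.

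Of 12 genes that release or handle arachidonate, 4 rose and 5 fell. Pla2g6, a calcium-independent phospholipase, rose by 0.47 on the log2 scale, while the diacylglycerol lipase Daglb fell by 0.44, the monoacylglycerol lipase Mgll by 0.37 and the acyltransferase Mboat7 by 0.28. Daglb shares 2309 exon bases with Rac1 on the other strand, so its value is uncertain. Of 10 other lipoxygenase and leukotriene genes 1 rose and 6 fell. The dipeptidase Dpep2, which converts leukotriene D4 to E4, fell by 0.78, its relative Dpep3 by 0.53, the cytochrome Cyp4f16 by 0.39 and the glutathione transferase Mgst3 by 0.35. Dpep2 overlaps other annotated genes, and the low level of Dpep3 (2.62 TPM in untreated cells) rests on few reads.

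Of 7 other prostanoid synthases and catabolic enzymes 4 rose and 3 fell. The prostaglandin reductase gene Zadh2 rose by 0.52 and the prostaglandin E synthase Ptges2 by 0.28, while Prxl2b, a prostamide and prostaglandin F synthase, fell by 0.34 and the carbonyl reductase Cbr1 by 0.18. Of 3 transporters, the organic anion carrier Slco2b1 rose, with means of 7.04 ± 0.185 TPM untreated and 35.4 ± 1.48 TPM after IL-13 (SD, n = 3 each), an averaged log2 difference of 2.14 (limma adjusted p = 4.11e-17).

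Among receptors, Ptgir, which binds prostacyclin, rose, with means of 88.8 ± 7.52 TPM untreated and 399.5 ± 15.6 TPM after IL-13 (SD, n = 3 each), an averaged difference of 1.95 (limma adjusted p = 1.46e-17). Of the prostaglandin E2 receptors Ptger2 rose by 0.41 and Ptger4 fell by 0.48. The leukotriene B4 receptors Ltb4r1 and Ltb4r2 rose by 0.90 and 0.57 but rest on few reads, with 2 and 3 over the 3 untreated libraries and 15 and 19 over those with IL-13. Ltb4r1 had group means of 0.277 to 0.822 TPM without IL-13 and of 1.48 to 1.88 TPM with it. It therefore passed the filter on low values only through libraries with IL-13, where it is high. Fpr2, a receptor of lipoxin and formyl peptides, rose by 0.65; it shares 48 exon bases with its paralog Fpr3 and is uncertain. Of 7 genes of platelet-activating factor 1 rose and 5 fell, among them its receptor Ptafr by 1.40 (72.2 ± 7.47 TPM untreated, 26.8 ± 0.92 TPM with IL-13, SD, n = 3; limma adjusted p = 4.51e-16) and the acyltransferases Lpcat1 by 0.77 and Lpcat2 by 0.48. The hydrolase Pafah2 fell by 0.45, and Gpr65, a proton-sensing relative of Gpr132, by 0.53; it shares 511 exon bases with the antisense gene Gm47566.

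**Figure D5:**
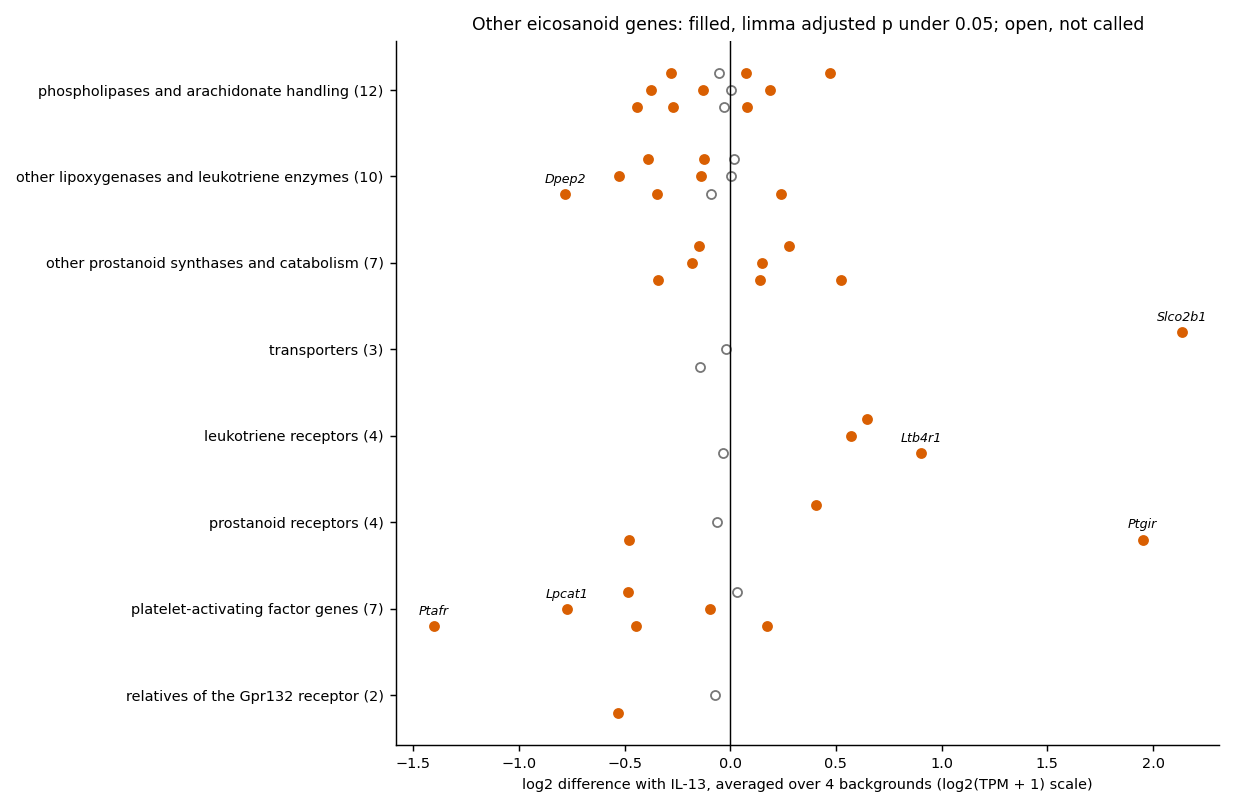
Averaged log2 difference with IL-13 (horizontal axis, log2(TPM + 1) scale) of the 49 tested genes of the wider list by subgroup (vertical axis, numbers tested in parentheses); filled points were called by limma and open points were not. Slco2b1 and Ptgir lie near 2 and Ptafr at -1.40.

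Added beside IL-13, IL-33 raised 3 and lowered 5 of the 49 listed genes (2.57% of all tested genes called), and with IL-17A also present raised 2 and lowered 6 (3.55%). Fpr2 stood at 55.1 ± 7.51 TPM with IL-13 and at 26.3 ± 2.30 TPM with IL-33+IL-13 (SD, n = 3 each), a log2 difference of -1.03 (limma adjusted p = 1.52e-05), and was at 25.9 ± 2.57 TPM in untreated cells. Ptgr1, which inactivates leukotriene B4, went from 69.3 to 42.3 TPM (-0.70, limma adjusted p = 4.14e-07). In both genes the interaction of IL-33 with IL-13 was called with and without IL-17A, at -0.78 and -1.01 for Fpr2 and at -0.76 and -0.85 for Ptgr1. These genes were chosen after their values were seen. Reads of other named genes are uncertain where exons overlap on the opposite strand: Ptger4 shares 1015 exon bases with Gm15937, Slco2b1 471 with Gm15635, Lpcat2 287 with Gm45472, Mboat7 277 with Tsen34, Ptger2 246 with Gm17173, Mgll 167 with Gm26588 and Dpep3 119 with Gm45752.

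The genes whose levels were most like those of Ptgs1 over the 24 libraries were Chil3, a chitinase-like secreted protein (Pearson r = 0.996), Rab3il1, an exchange factor of Rab proteins (0.996), and Kcnh4, a potassium channel subunit (0.995). For Gpr132 they were the tetraspanin Cd37 (0.990), the transcription factor Lyl1 (0.985) and the surface glycoprotein Cd24a (0.983). The points share libraries, and the levels of all follow the presence of IL-13: 624 genes had an r above 0.9 with Ptgs1 and 593 with Gpr132.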

How the data were processed

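RNA of 24 libraries was analysed, 8 treatment groups of 3, grouped by the treatment label. The replicate numbers follow the order of deposition and only name libraries. The titles also number the libraries, and 4 of them, all with IL-33 (IL-33 replicate 3, IL-33+IL-17A replicates 2 and 3, triple replicate 3), have numbers of 30 and above; the labels do not say what this marks, and it was tried as a covariate. The deposited tables hold 1 TPM value for each of 17017 genes. The length column named in the file headers equals end minus start for every one of them, so the authors' TPM counts introns as length. STAR and mm10 are named in the submitters' processing notes. No version, counting tool or strand setting is stated in the labels, so reads of a gene and of its antisense partner cannot be told apart.

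Multiplied by length, low TPM values came out as whole numbers of 1 unit in each library (90.0% to 91.4% of those worth at most 20 reads, tolerance 0.05, against 10% by chance), which gave read numbers. Those of the members were whole in all libraries except 2 for Ltc4s.

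The test was limma-trend (limma 3.58.1, R 4.3.3) on log2(TPM + 1), for 13215 genes reaching 1 TPM in 3 or more libraries, with 8 group means in 1 fit and 16 residual degrees of freedom. The p-values were adjusted (Benjamini-Hochberg) over all tested genes of each of 15 comparisons. The fit was tested on simulated data, where it called most but not all of the larger changes. The share required there was lowered after a first, higher limit was not met, with the fit unchanged. Why the other changes were missed was not examined. Exon lengths came from GENCODE M21 and promoter windows from RefSeq (GRCm38.p6). Figures were drawn with matplotlib 3.10.9. Coordinates are 1-based on mm10.

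The members and lists were chosen with earlier results of these data known. All 10 members are named in every group. Of the wider list, the text names per subgroup up to 4 called genes with the largest averaged IL-13 difference, and the 3 genes most like the members with the largest rise and fall. The 9 alternatives to single choices and the omission of each of the 24 libraries were run, among them limma-voom on recovered reads, other pseudocounts, filters and scaling.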

Additional observations from a re-analysis of the deposited data

Results flagged for a closer look

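The 6 values were set aside because the difference with IL-33 was itself different with and without IL-13, by the limma interaction test on the log2(TPM + 1) scale. For Pla2g7 the interaction was -0.80 without IL-17A and -0.73 with it. With and without IL-17A the libraries with IL-33 and IL-13 lay below all others, at 26.1 to 29.0 TPM, where IL-13 without IL-33 gave 44.5 to 48.2 TPM and IL-33 without IL-13 gave 52.3 to 59.7 TPM. For Alox5ap it was -0.49 without and -0.39 with IL-17A, and the same libraries were at 27.1 to 33.5 TPM against 39.0 to 42.5 TPM with IL-13 and 43.6 to 48.5 TPM with IL-33. For Hpgds it was 0.34 and for Gpr132 0.72, both without IL-17A. The comparisons with and without IL-17A share no library, so the Pla2g7 and Alox5ap values come from separate libraries in each.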

How the results depend on the processing

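No called difference of a member changed sign under the alternatives run. Of these values under the alternatives, 2091 stayed on the same side of the threshold, 80 lost their call and 1 gained it (Alox5ap with IL-17A, groups compared alone). Most alternatives leave out 1 library, often one outside the groups compared, which leaves the difference itself unmoved. These totals therefore say little about any 1 call. Without IL-17A, the Gpr132 interaction lost its call in 15 of 34 alternatives and the Hpgds interaction in 10 of 34. Sizes moved more than calls for some members. The averaged IL-13 difference ran from 1.94 to 3.75 for Ptgs1 and from -2.04 to -1.03 for Gpr132. For Ltc4s it ran only from 1.07 to 1.18. The Gpr132 interaction without IL-17A ran from 0.36 to 1.01. With only the groups compared in the fit, which leaves few degrees of freedom, the members called fell to 2 for IL-33 added to IL-13, 1 for IL-33 added to IL-13+IL-17A and 2 for the interaction without IL-17A. Counts over all tested genes are not given here for these fits. Leaving out 1 library in turn gave 10 members called for the averaged IL-13 difference, 7 to 10 against untreated cells, 3 to 5 for IL-33 added to IL-13, 3 to 6 for IL-33 added to IL-13+IL-17A, 2 to 4 for the interaction without IL-17A and 2 to 3 with it. Over all tested genes these omissions gave, in the same order, 6463 to 6883, 3319 to 4466 and 212 to 418 calls. For the last 3 comparisons they gave 287 to 667, 114 to 225 and 105 to 237. The counts over all genes thus moved as well. The omissions gave 36 to 38 of the wider list, where 37 were called. Without the 3 libraries that stood apart, 10 members kept the averaged IL-13 call, 4 higher and 6 lower, and 8 were called against untreated cells, Alox5ap and Ptges being lost. Without those libraries Gpr132 also lost its interaction call without IL-17A, and Tbxas1 its call for IL-33 added to IL-13+IL-17A. The Gpr132 interaction without IL-17A lost its call also with a pseudocount of 0.1, with no filter and with the groups compared alone. With title numbers of 30 and above as a covariate, Lta4h lost its call for IL-13 beside IL-33, the other member calls held and 35 of the wider list were called. Depth was lowest for Ptgs1 without IL-13, from 24 reads a library, and for Gpr132 with IL-13, from 25. No paired analysis was possible because the replicate numbers only name libraries in order of deposition and pair none across groups.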
